A study of Homo sapiens with 3 samples.

Results

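Kinesins, the proteins of the centromere and the spindle pole protein ASPM were followed in 22Rv1 prostate cancer cells. The set was taken by symbol and holds every row named KIF or KIFC plus a number, every row named CENP plus a letter, and ASPM. It comprised 50 of the 15466 gene symbols of the count table, of which 31 were KIF or KIFC symbols, 18 were CENP symbols and the last was ASPM. Of these 50 genes, 33 had a mean of at least 1 CPM (counts scaled to the library total) over the 3 libraries and were kept, as were 8949 symbols in all. The set was defined by symbol and not by measured values, but it was chosen with earlier results of these data known.

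22Rv1 is a human prostate carcinoma line that grows in culture. The cells were transfected for 48 h with 20 µg of plasmid carrying MLPH transcript V4, with the same amount of plasmid carrying MLPH transcript V1, or with an empty vector, so that cells of every group had been through a transfection. MLPH encodes melanophilin, an adaptor that couples a Rab GTPase on melanosomes to a myosin motor. Poly(A) RNA was sequenced as 150 base single reads, with 1 library per group in the table. The amount of empty vector is not stated in the labels, nor are the share of cells that took up plasmid and the promoter of the plasmids.

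Kinesins are motor proteins that hydrolyse ATP to move along microtubules. Some carry vesicles and organelles through the cell, and others build the mitotic spindle, move chromosomes or take microtubules apart at their ends. CENP proteins mark the centromere and carry the kinetochore, to which spindle microtubules attach. ASPM sits at the minus ends of microtubules at spindle poles. Many of the mitotic genes among them are transcribed late in the cell cycle and are held back in resting cells through promoter elements bound by the DREAM complex, so that their summed level in a culture moves with the number of cells in division. In bulk RNA, fewer dividing cells and less RNA per cell cannot be told apart.

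The totals were 9609381 counts in the library labelled V4, 9253399 in that labelled V1 and 7165491 in that taken as empty vector. The last is taken so by elimination, since its column names the cell line and no transfection. Kept genes had a median of 149 counts with V4, 149 with V1 and 71 with empty vector, and a count of 0 allowed up to 0.312 CPM with V4, 0.324 with V1 and 0.419 with empty vector. MLPH, the transfected gene, had 7773 counts in the library labelled V4, 7219 in that labelled V1 and 7441 in that taken as empty vector. After scaling of library sizes its ratio over the column taken as empty vector was 0.653 with V4 and 0.614 with V1, so the transfected gene was lower, not higher, in both libraries that carry its label. Every direction over empty vector given below rests on labels that MLPH does not bear out, and libraries are therefore named by their labels: "with V4" and "with V1" stand for the libraries so labelled, and "with empty vector" for the column so taken. The V4 over V1 ratio of MLPH was 1.06. Luminal prostate markers summed to 1620 CPM with V4, 1490 with V1 and 1140 with empty vector (8 genes), an order that rests on CDH1 (854 CPM with V4, 690 with V1 and 117 with empty vector). Without CDH1 the other 7 summed to 769 CPM with V4, 796 with V1 and 1030 with empty vector, and KRT8 alone stood at 170 CPM with V4, 225 with V1 and 618 with empty vector. There were 2 basal markers, which summed to 1.56 CPM with V4, 1.3 with V1 and 0.698 with empty vector, and 3 endothelial genes summed to 1.14 CPM with V4, 0.108 with V1 and 7.54 with empty vector. Of the luminal markers KLK2 and TMPRSS2 had at most 13 counts in any library. The leukocyte marker PTPRC had 0 counts in all 3 libraries, and CD68 had 59 counts with V4, 86 with V1 and 35 with empty vector. CD3E, the other leukocyte marker, had 0 counts with V4, 0 with V1 and 9 with empty vector. Of 3 fibroblast genes, COL1A2 had 4 counts with V4, 976 with V1 and 687 with empty vector, COL3A1 had 0 counts with V4, 526 with V1 and 364 with empty vector, and LUM had 44 counts with V4, 33 with V1 and 33 with empty vector.

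The set held 26657 counts in the library labelled V4, 21917 in that labelled V1 and 18609 in that taken as empty vector. KIF5B, the widely expressed heavy chain of conventional kinesin, alone gave 54.5% with V4, 50.4% with V1 and 61.7% with empty vector of them. Without KIF5B the set summed to 1263 CPM with V4, 1174 with V1 and 994.5 with empty vector. Levels are compared between genes as CPM per kilobase of the longest annotated transcript. On that scale KIF5B stood at 257 with V4, 203 with V1 and 273 with empty vector, and the next gene, CENPB, which binds a short box in the alpha satellite DNA of centromeres, at 111 with V4, 122 with V1 and 127 with empty vector. CENPH, a constitutive centromere protein, stood at 42.9 CPM per kilobase with V4, 42.1 with V1 and 33.5 with empty vector. KIF3B, a motor of kinesin-2 that works in cilia and in transport, stood at 38.9 with V4, 31.9 with V1 and 15.7 with empty vector. Of the mitotic motors, KIF22, a chromosome arm motor, stood at 8.23 with V4, 9.53 with V1 and 25.2 with empty vector, and KIF11, which slides spindle microtubules apart and so separates the poles, stood at 11.6 with V4, 8.01 with V1 and 1.67 with empty vector. These orders within a library compare genes whose reads may be counted unequally, as the number of annotated transcripts shows below.

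**Figure D1:**
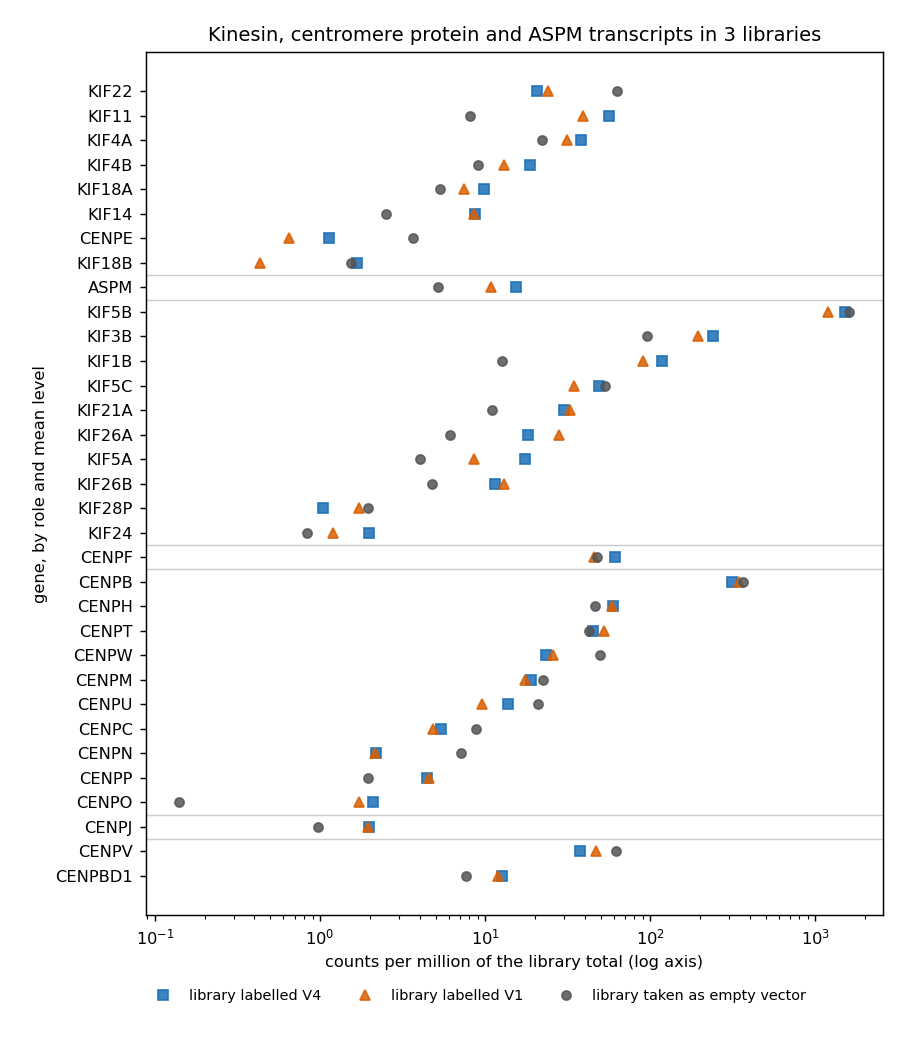
Level in CPM of the 33 kept genes (rows, grouped by role and ordered by mean level) in the library labelled V4 (squares), that labelled V1 (triangles) and that taken as empty vector (circles), on a log axis. KIF5B stands at 1510 CPM with V4, 1190 with V1 and 1600 with empty vector, far right of all other genes, and squares and triangles lie close together while many circles lie apart from both.

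The comparison of the library labelled V4 with that labelled V1 sets the transcripts of MLPH side by side, as far as the labels hold. Its ratios use no counts of the column taken by elimination, but the filter and the scaling factors were taken over all 3 libraries. CENPE was kept only through that column. More kinesins were higher than lower in the library labelled V4, and of the constitutive centromere proteins CENPU alone was called. A gene was counted as higher or lower where its ratio of scaled counts was at least 25% above 1, or at least 20% below it, with a prior of 2 counts, and the 95% exact (Clopper-Pearson) interval of the ratio excluded 1. By that rule 12 of the 33 kept genes were higher in the library labelled V4 and 1 was lower, or 36.4% and 3.03%. Over all 8949 kept genes the shares were 11.3% higher and 12.3% lower. The median log2 ratio was 0.18 for the set and -0.01 for all kept genes. Among kinesins, CENPE included, 9 of 18 were higher and 1 was lower, with a median log2 ratio of 0.39. Among CENP symbols 2 of 15 were higher and none was lower by the same rule, with a median of 0.06. The difference between kinesins and CENP symbols was not tested. With 1 library per group no difference here has a replicate check, no p-value can be had, and every interval covers counting error only.

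Of the 8 kept mitotic kinesins 4 were higher in the library labelled V4 and none was lower, with a median log2 ratio of 0.49. KIF11 had 541 counts in the library labelled V4, 360 in that labelled V1 and 58 in that taken as empty vector. Its V4 over V1 ratio was 1.48 (interval 1.30 to 1.70), and both plasmid libraries stood well above the third. KIF4A, a chromosome-bound motor that also works in the central spindle, had 365 counts with V4, 288 with V1 and 158 with empty vector. Its log2 ratio was 0.32, just inside the 25% threshold, and the interval of its ratio was 1.07 to 1.47. KIF18B, which limits the length of astral microtubules, had 16 counts with V4, 4 with V1 and 11 with empty vector. Its ratio of 3.95 was the largest of the set and had the widest interval among the genes called (1.27 to 16.2), because it rests on few reads.

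The other mitotic motors were not called between V4 and V1. KIF18A, which damps chromosome oscillation at the metaphase plate, had 95 counts in the library labelled V4, 69 in that labelled V1 and 38 in that taken as empty vector, and its V4 over V1 ratio of 1.36 had an interval that included 1 (0.987 to 1.88). KIF14, a motor of cytokinesis, had 83 counts with V4, 79 with V1 and 18 with empty vector, and KIF22 had 198 with V4, 221 with V1 and 452 with empty vector. The interval of the V4 over V1 ratio was 0.754 to 1.43 for KIF14 and 0.727 to 1.08 for KIF22. CENPE, the kinesin that carries chromosomes to the spindle equator from the kinetochore, had 11 counts with V4, 6 with V1 and 26 with empty vector, too few to place its V4 over V1 ratio more closely than 0.614 to 5.97.

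KIF4B was also higher with V4, at 179 counts in the library labelled V4, 120 in that labelled V1 and 65 in that taken as empty vector, and its V4 over V1 ratio was 1.47 (1.16 to 1.87). KIF4B is a retrocopy of KIF4A: in GENCODE release 29 its transcript has 1 exon on chromosome 5, against 31 exons of KIF4A on chromosome X. Their coding sequences, of 3702 and 3696 bases, are 95.9% identical over 3696 aligned bases. The stretch from coding base 13 to 162 of each, as long as a read, is shown because it tells how far reads of the pair can be separated. Capitals mark the 6 bases at which they differ.
KIF4B: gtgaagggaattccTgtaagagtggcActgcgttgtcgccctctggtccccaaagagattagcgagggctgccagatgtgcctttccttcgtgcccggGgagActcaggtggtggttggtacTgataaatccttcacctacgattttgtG
KIF4A: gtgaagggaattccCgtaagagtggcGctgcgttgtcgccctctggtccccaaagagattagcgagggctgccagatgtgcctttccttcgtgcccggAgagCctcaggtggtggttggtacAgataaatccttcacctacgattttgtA
Over 3398 windows of 150 bases the pair differed at a median of 6 bases, with a range of 0 to 14, and 2 windows were identical. Most coding reads of this length could thus in principle be told apart. Reads from stretches with few or no differences could be given to either gene. The sources used here do not say how the authors' counting treated such reads, so the split between KIF4A and KIF4B is uncertain.

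ASPM and CENPF, a large protein of the outer kinetochore that builds up in late cell cycle, were both higher with V4. ASPM had 148 counts in the library labelled V4, 101 in that labelled V1 and 37 in that taken as empty vector, and its V4 over V1 ratio was 1.45 (1.12 to 1.88). CENPF had 588 counts with V4, 422 with V1 and 338 with empty vector and a ratio of 1.38 (1.21 to 1.56). On scaled counts ASPM was highest in the library labelled V4 and lowest in that taken as empty vector, while CENPF was not called between V4 and empty vector (ratio 1.09, lower bound 0.95). That ratio of CENPF depends on the scaling: it was 0.541 (0.472 to 0.62) with the length trend of all genes removed and 0.753 (0.658 to 0.863) with the GC trend removed, both called lower with V4, and 1.3 (1.13 to 1.49) on total counts, called higher with V4.

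Of the 10 kept transport and other kinesins 5 were higher in the library labelled V4 and 1 was lower, with a median log2 ratio of 0.35. All 3 heavy chains of conventional kinesin were among the higher ones. KIF5B had 14523 counts in the library labelled V4, 11056 in that labelled V1 and 11483 in that taken as empty vector, with a V4 over V1 ratio of 1.30 (1.27 to 1.33). KIF5C, known best from neurons, had 473 counts with V4, 319 with V1 and 381 with empty vector and a ratio of 1.47 (1.27 to 1.69). KIF5A, likewise a neuronal form and a gene of hereditary spastic paraplegia, had 167 counts with V4, 79 with V1 and 29 with empty vector and a ratio of 2.09 (1.59 to 2.77). KIF5A lay highest with V4 and lowest in the column taken as empty vector, whereas the scaled level of KIF5B and KIF5C was highest in that column.

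KIF1B, a kinesin-3 that moves mitochondria and synaptic vesicle precursors, had 1129 counts in the library labelled V4, 840 in that labelled V1 and 90 in that taken as empty vector. Its V4 over V1 ratio was 1.33 (1.21 to 1.45). KIF3B had 2283 counts with V4, 1801 with V1 and 688 with empty vector and a log2 ratio of 0.32, at the 25% threshold, with an interval of the ratio of 1.18 to 1.33. KIF26A, a kinesin-like protein without motor activity that takes part in the growth of enteric neurons in mice, was the only gene of the set called lower with V4. It had 175 counts with V4, 260 with V1 and 44 with empty vector, and its V4 over V1 ratio was 0.665 (0.546 to 0.809). The remaining 4 were not called: KIF21A, a kinesin-4 that restrains microtubule growth, had 287 counts with V4, 300 with V1 and 79 with empty vector, and KIF26B had 110 with V4, 120 with V1 and 34 with empty vector. KIF24, a centriolar kinesin that acts on cilia, had 19 counts with V4, 11 with V1 and 6 with empty vector, and the annotated pseudogene KIF28P had 10 with V4, 16 with V1 and 14 with empty vector.

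Of the 10 kept centromere proteins 9 were not called between the libraries labelled V4 and V1, and for several of these the counts were too few to bound the ratio near 1. CENPU alone was called, at 132 counts in the library labelled V4, 89 in that labelled V1 and 150 in that taken as empty vector, with a V4 over V1 ratio of 1.47 (1.11 to 1.94). CENPU belongs to the group of constitutive centromere proteins that also holds CENPO and CENPP, and the ratio was 1.24 (0.608 to 2.55) for CENPO and 1.01 (0.646 to 1.59) for CENPP. CENPB, with 3022 counts with V4, 3202 with V1 and 2594 with empty vector, had a ratio of 0.933 (0.887 to 0.98), whose interval excluded 1 but which lay well short of the threshold. CENPH, with 572 counts with V4, 541 with V1 and 333 with empty vector, had a V4 over V1 ratio of 1.04 (0.927 to 1.18). For both, the counts bounded the ratio within less than the 25% threshold in either direction. CENPV, a protein of the midzone and of pericentric chromatin, had 360 counts with V4, 433 with V1 and 445 with empty vector and was 1.22-fold lower with V4 (1.06 to 1.40), just outside the threshold. CENPC, CENPM, CENPN, CENPT and CENPW were not called either, with V4 over V1 ratios from 0.886 to 1.14. Their intervals ranged in width up to that of CENPN (0.535 to 2.02), and that of CENPC was 0.751 to 1.74.

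**Figure D2:**
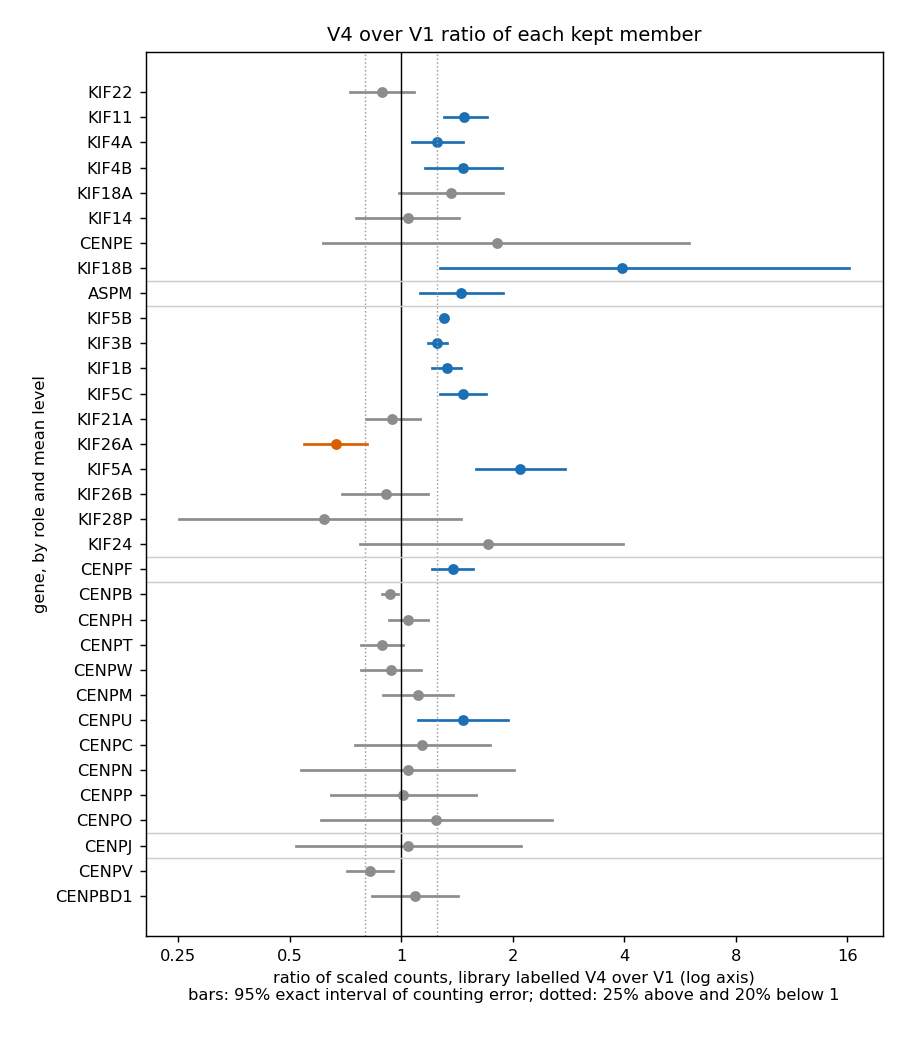
Ratio of scaled counts of the 33 kept genes, library labelled V4 over that labelled V1, on a log axis, with 95% exact intervals of counting error as bars and the thresholds, 25% above and 20% below 1, as dotted lines. Blue marks the 12 genes higher with V4, orange KIF26A, which was lower, and grey the 20 genes called in neither direction, among them all kept CENP genes but CENPF and CENPU.

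Transcript length and base composition moved with this result. The 12 genes higher with V4 had a median longest transcript of 5850 bases and a median GC content of 45.1%, against 3568 bases and 50% for the other 21 kept genes. Over all kept genes the V4 over V1 log2 ratio rose with length (Spearman's rho 0.26) and declined with GC content (rho -0.33). These are correlations across 8525 genes of the same pair of libraries, and genes are not independent replicates. With the length trend removed 6 genes of the set were higher with V4, or 18.2% against 9.33% of all kept genes, and with the GC trend removed 7, or 21.2% against 9.38%. KIF11, KIF18B, KIF4B, KIF5A and KIF5C were called under both. CENPU was called with the length trend removed only, and CENPF and KIF1B with the GC trend removed only. ASPM, KIF4A, KIF3B and KIF5B were called under neither. At a threshold of 1.5-fold only KIF5A and KIF18B remained, or 6.06%, against 5.42% of all kept genes, a share near that of all genes. KIF18B, at 1.67 CPM with V4, 0.432 with V1 and 1.54 with empty vector, passed the filter only with the V4 library included. The fibroblast genes COL1A2 and COL3A1, near 0 with V4 alone, moved with the same contrast. Their part in these ratios, and that of length and GC content, was not tested beyond the removal of the trends.

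**Figure D3:**
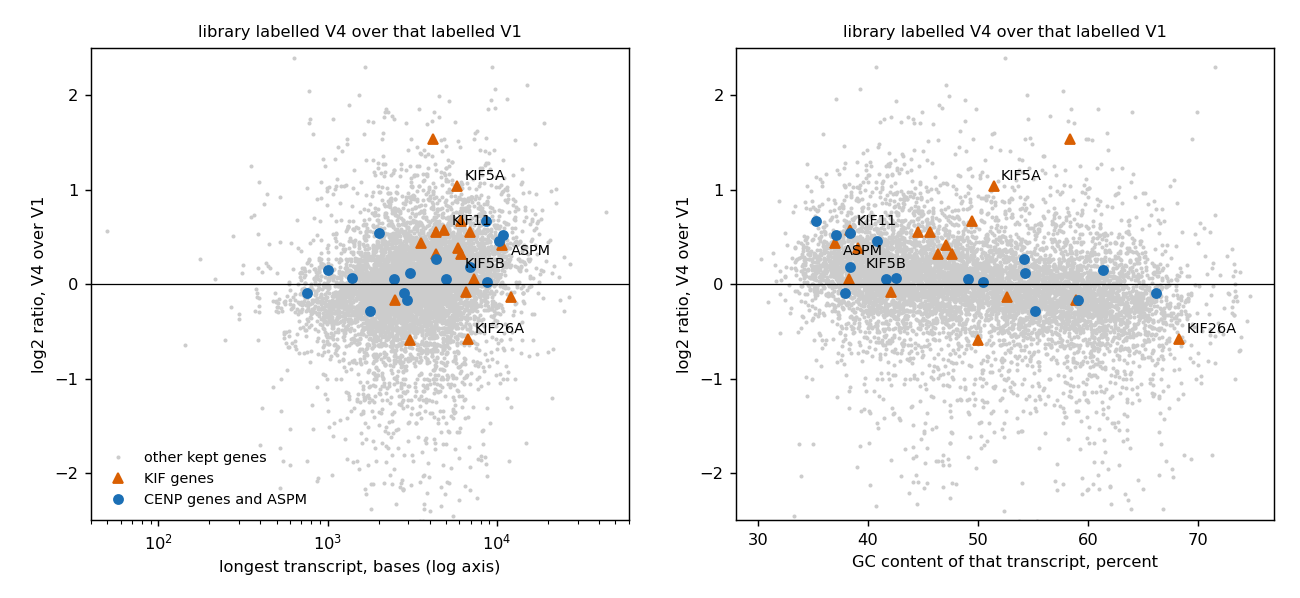
Log2 ratio of the library labelled V4 over that labelled V1 against the length of the longest transcript (left, log axis) and its GC content (right) for KIF genes (triangles), CENP genes and ASPM (circles) and the other kept genes (grey). Most KIF genes lie above 0 among longer transcripts, KIF26A lies below 0 at the highest GC content of the set, and 89 genes with a log2 ratio beyond 2.5 in either direction lie outside the axes.

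Promoter letters were read because KIF11, KIF4A, ASPM and CENPF, all active in mitosis, were called in one direction. Of these genes KIF11 alone kept its V4 over V1 call with either trend removed. ASPM was at 1.21 (0.933 to 1.57) with the length trend removed and 1.28 (0.988 to 1.67) with the GC trend removed, called under neither. KIF4A, at 1.21 and 1.20, was called under neither as well. CENPF lost its call with the length trend removed (1.16) and kept it with the GC trend removed (1.26). RefSeq windows on GRCh38.p14 from 250 bases before to 50 after the annotated start were found for 41 of the 50 genes, 49 windows in all. The cell cycle genes homology region (CHR, searched as TTTGAA or TTCGAA on both strands) is bound by the DREAM complex, and CCAAT boxes (CCAAT, both strands) by NF-Y. CHR letters were in 12 of 15 windows of mitotic kinesins (80.0%), in 5 of 12 of centromere proteins (41.7%) and in 2 of 19 of transport and other kinesins (10.5%), against 16.4% of all 35116 windows. Windows with both CHR and CCAAT letters were 36.7% of those of the set and 6.38% of all. Letters of the E2F site, searched as TTTGGCGC, TTTCCCGC, TTTGCCGC or TTTCGCGC on both strands, were in 6.12% of the set's windows and 3.31% of all. None of the search strings contains another. Among the 11 genes higher with V4 that had windows, 7 held CHR letters and all 11 held CCAAT letters, in 50% and 85.7% of their 14 windows. For the kept genes of the set as a whole, CHR letters were in 16 of 32 windows, the same share, and CCAAT letters in 62.5%. CCAAT letters were common throughout, in 57.1% of the windows of the set and 34.6% of all windows. A match of letters is a description and does not show that a factor binds.

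The 180 bases from 150 before to 30 after the RefSeq start are shown, 5′ to 3′ in the direction of the gene, for 4 mitotic genes called higher with V4, because both kinds of letters were found in the window of each. Capitals mark CHR letters (TTTGAA or its complement TTCAAA) and CCAAT letters (CCAAT or its complement ATTGG). The regions are chr10:92592980-92593159 on the plus strand for KIF11, chr1:197146640-197146819 on the minus strand for ASPM, chrX:70289954-70290133 on the plus strand for KIF4A and chr1:214603045-214603224 on the plus strand for CENPF.
KIF11: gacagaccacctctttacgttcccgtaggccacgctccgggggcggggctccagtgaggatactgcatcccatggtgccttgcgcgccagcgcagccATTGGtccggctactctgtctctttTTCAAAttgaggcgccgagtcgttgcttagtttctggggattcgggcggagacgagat
ASPM: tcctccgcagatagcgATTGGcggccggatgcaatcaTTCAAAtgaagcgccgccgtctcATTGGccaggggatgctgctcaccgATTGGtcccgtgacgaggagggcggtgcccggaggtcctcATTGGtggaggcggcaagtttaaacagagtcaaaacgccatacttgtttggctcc
KIF4A: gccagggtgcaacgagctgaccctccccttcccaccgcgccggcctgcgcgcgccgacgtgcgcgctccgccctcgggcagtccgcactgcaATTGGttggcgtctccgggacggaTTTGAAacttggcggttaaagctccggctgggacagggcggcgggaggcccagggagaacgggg
CENPF: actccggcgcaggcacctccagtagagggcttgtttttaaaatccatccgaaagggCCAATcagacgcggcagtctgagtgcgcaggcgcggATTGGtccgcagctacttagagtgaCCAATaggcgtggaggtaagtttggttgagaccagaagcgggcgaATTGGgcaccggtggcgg
In KIF11 the CHR letters began 28 bases before the start and the CCAAT letters 53, and in KIF4A 34 and 58. The RefSeq start of KIF11 lies 156 bases upstream of the nearest start in GENCODE release 29, so these distances hold for the RefSeq start alone. ASPM held CHR letters that began 113 bases before the start, among 4 CCAAT matches. CENPF held 4 CCAAT matches as well, and its CHR letters began 41 bases after the start, beyond the stretch shown.

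The comparisons over the library taken as empty vector ask what each plasmid did against the control. Both share that control, so they are not independent of each other, and MLPH itself was lower with both labels. Large ratios were common in both directions: KIF11, KIF1B and several transport kinesins were higher in the libraries labelled V4 and V1, and several constitutive centromere proteins, KIF22 and KIF5B were lower. With V4, 15 of the 33 kept genes were higher (45.5%) and 11 lower (33.3%), against 36.5% and 34.2% of all kept genes. With V1, 11 were higher (33.3%) and 13 lower (39.4%), against 36.6% and 31.3%. The median log2 ratio of the set was 0.46 with V4 and 0.18 with V1, and that of all kept genes 0.08 with V4 and 0.12 with V1. The shares of the set lay near those of all genes, so neither comparison set these genes apart as a whole. Scaling by total counts in place of TMM left 7 genes lower with V4 and made 17 higher, and the shares of all kept genes under it are not given. Transport and other kinesins had 6 of 10 higher and 2 lower with either label, and centromere proteins 2 of 10 higher and 6 lower with either label.

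Over the 3 libraries 11 genes were higher with both labels than in the library taken as empty vector. The share of all kept genes higher with both labels is not given, and both ratios share the control column, so this count describes the set alone. KIF1B was 7.84-fold higher with V4 (6.32 to 9.83) and 5.91-fold with V1 (4.75 to 7.43). KIF11 was 5.83-fold higher with V4 (4.44 to 7.79) and 3.93-fold with V1 (2.97 to 5.28). Removal of the length trend left KIF1B 3.88-fold higher with V4 and 3.32-fold with V1, and KIF11 3.74-fold with V4 and 2.58-fold with V1. KIF5A was 3.60-fold higher with V4 (2.42 to 5.54) and 1.72-fold with V1 (1.11 to 2.74), and KIF26A was 2.49-fold with V4 (1.78 to 3.55) and 3.74-fold with V1 (2.71 to 5.27). KIF14, KIF21A, KIF26B, KIF3B and ASPM had ratios from 2.02 to 2.88 with V4 and from 1.66 to 2.78 with V1. With the length trend removed KIF26B, KIF3B and ASPM were called with neither label, at log2 ratios of -0.04, 0.32 and 0.27 with V4 and 0.29, 0.08 and -0.07 with V1. KIF14 (1.62, 0.966 to 2.87) was then no longer called with V4, nor KIF5A (1.1, 0.714 to 1.75) with V1, and KIF26A was 1.44-fold higher with V4 and 2.34-fold with V1. ASPM also lost its call with V1 when the GC trend was removed (1.13, 0.77 to 1.70).

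CENPO and CENPP were the only centromere proteins higher with both labels. CENPO rests on 20 counts in the library labelled V4, 16 in that labelled V1 and 1 in that taken as empty vector, and its ratios of 12.5 with V4 (2.0 to 518) and 10.1 with V1 (1.57 to 425) are bounded only loosely. At 2.08 CPM with V4, 1.73 with V1 and 0.14 with empty vector, CENPO passed the filter only through the libraries where it was high. The filter thus favours a call of higher for CENPO. CENPP had 43 counts with V4, 42 with V1 and 14 with empty vector and ratios of 1.92 with V4 (1.03 to 3.80) and 1.90 with V1 (1.02 to 3.76), whose lower bounds nearly touch 1. CENPP was called with neither label once the length or the GC trend was removed, at 0.996 with V4 and 1.1 with V1 for length.

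The 11 genes lower with both labels included 6 constitutive centromere proteins. For this count, too, the share of all kept genes is not given. CENPN, which reads the nucleosome of the centromere, had 21 counts in the library labelled V4, 20 in that labelled V1 and 51 in that taken as empty vector. It was 3.88-fold lower with V4 (2.29 to 6.80) and 4.03-fold lower with V1 (2.36 to 7.13). CENPW, a histone-fold partner of CENPT, had 225 counts with V4, 237 with V1 and 354 with empty vector and was 2.52-fold lower with V4 (2.12 to 2.99) and 2.36-fold lower with V1 (2.0 to 2.79). CENPW has one of the shorter transcripts of the set, and with the length trend removed it was 1.11-fold lower with V4 (ratio 0.899, 0.757 to 1.07) and 1.2-fold lower with V1 (0.835, 0.705 to 0.987), called with neither. CENPT itself, with 433 counts with V4, 483 with V1 and 304 with empty vector, was called in neither comparison, and with the length trend removed it was called lower with V4 (0.79, 0.68 to 0.917). CENPC, the scaffold of the inner kinetochore, had 52 counts with V4, 45 with V1 and 63 with empty vector and was 1.94-fold lower with V4 (1.32 to 2.85) and 2.21-fold lower with V1 (1.49 to 3.32). Corrected for the length trend it was 3.38-fold lower with V4 and 3.57-fold lower with V1. CENPU was 1.82-fold lower with V4 (1.43 to 2.31) and 2.66-fold lower with V1 (2.04 to 3.50). CENPM had 182 counts with V4, 162 with V1 and 161 with empty vector, and its ratio was 0.707 with V4 (0.569 to 0.879) and 0.637 with V1 (0.509 to 0.797). Corrected in that way CENPM turned to 1.42 with V4 (1.14 to 1.76), called higher, and to 1.13 with V1 (0.90 to 1.41), not called. Its call with V4 also ended with the GC trend removed (0.889). CENPB was 1.37-fold lower with V4 (1.30 to 1.45) and 1.28-fold lower with V1 (1.21 to 1.35), and was called with neither label once the GC trend was removed (ratio 1.08 with V4 and 0.96 with V1) or total counts were used (0.869 with V4 and 0.956 with V1).

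The motors lower with both labels were KIF22, CENPE, KIF5B and KIF5C. KIF22 was 3.65-fold lower with V4 (3.08 to 4.34) and 3.23-fold lower with V1 (2.75 to 3.81), the reverse of KIF11, which also acts in the spindle. CENPE was 3.78-fold lower with V4 (1.80 to 8.48) and 6.85-fold lower with V1 (2.76 to 20.3), on few counts, and with the length trend removed 7.24-fold lower with V4 and 11.7-fold lower with V1. At 1.14 CPM with V4, 0.648 with V1 and 3.63 with empty vector, CENPE passed the filter only through the column where it was high. The filter thus favours a call of lower for CENPE. KIF5B was 1.26-fold lower with V4 (1.23 to 1.30) and 1.64-fold lower with V1 (1.6 to 1.68), and KIF5C 1.29-fold lower with V4 (1.12 to 1.48) and 1.89-fold lower with V1 (1.62 to 2.20). With total counts in place of TMM neither was called with V4, at ratios of 0.943 for KIF5B and 0.926 for KIF5C, while with the length trend removed KIF5B was 2.07-fold lower with V4 and 2.56-fold lower with V1, and KIF5C 2.25-fold lower with V4 and 3.04-fold lower with V1. CENPV completes the group, at 1.98-fold lower with V4 (1.72 to 2.28) and 1.62-fold lower with V1 (1.42 to 1.86). The 5 genes called in none of the 3 comparisons were CENPH, CENPT, KIF24, KIF28P and CENPJ, a centriole protein with 19 counts with V4, 18 with V1 and 7 with empty vector.

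A few genes were called over the control column with 1 label. With V4, KIF4A was higher at a ratio of 1.44 (1.20 to 1.75), KIF4B at 1.72 (1.29 to 2.32) and KIF18A at 1.56 (1.06 to 2.34). All 3 calls ended with the length trend removed, at 0.992 for KIF4A, 1.18 for KIF4B and 1.22 for KIF18A. With the GC trend removed those of KIF4A (1.2) and KIF18A (0.917) ended, and with upper-quartile scaling that of KIF18A (1.46, 0.991 to 2.18). CENPBD1, an annotated transcribed pseudogene with 122 counts with V4, 111 with V1 and 55 with empty vector, was higher with V4 at 1.39, with a lower bound that rounds to 1. KIF18B and CENPF were lower with V1, KIF18B 4.35-fold (1.29 to 18.7) and CENPF 1.27-fold (1.09 to 1.46). The call of CENPF with V1 ended on total counts (ratio 0.967), and with the length trend removed it was 2.24-fold lower with V1.

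Median transcript length differed between the genes higher and lower over the control column, though the ranges overlapped. The 11 genes higher with both labels had a median longest transcript of 6714 bases (range 4386 to 12113). The 11 lower with both had a median of 2505 bases (range 750 to 8612), where all kept genes had 3350. Across the 33 kept genes Spearman's rho between length and log2 ratio was 0.55 with V4 and 0.48 with V1, and across all kept genes it was 0.39 with V4 and 0.36 with V1. GC content showed little relation in the set (rho -0.04 with V4 and 0.04 with V1), where across all kept genes rho was -0.27 with V4 and -0.19 with V1. With the length trend of all genes removed, 8 genes of the set were higher with V4 and 7 with V1, of which 6 with V4 and 6 with V1 were among those called before. Of the genes lower before, 9 of 11 with V4 and 11 of 13 with V1 remained. The shares of all kept genes with that trend removed are not given for these comparisons, so these counts describe the set alone. The median log2 ratio of the set became -0.02 with V4 and -0.23 with V1. The trend is shared by all genes of these libraries, and its source was not tested.

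**Figure D4:**
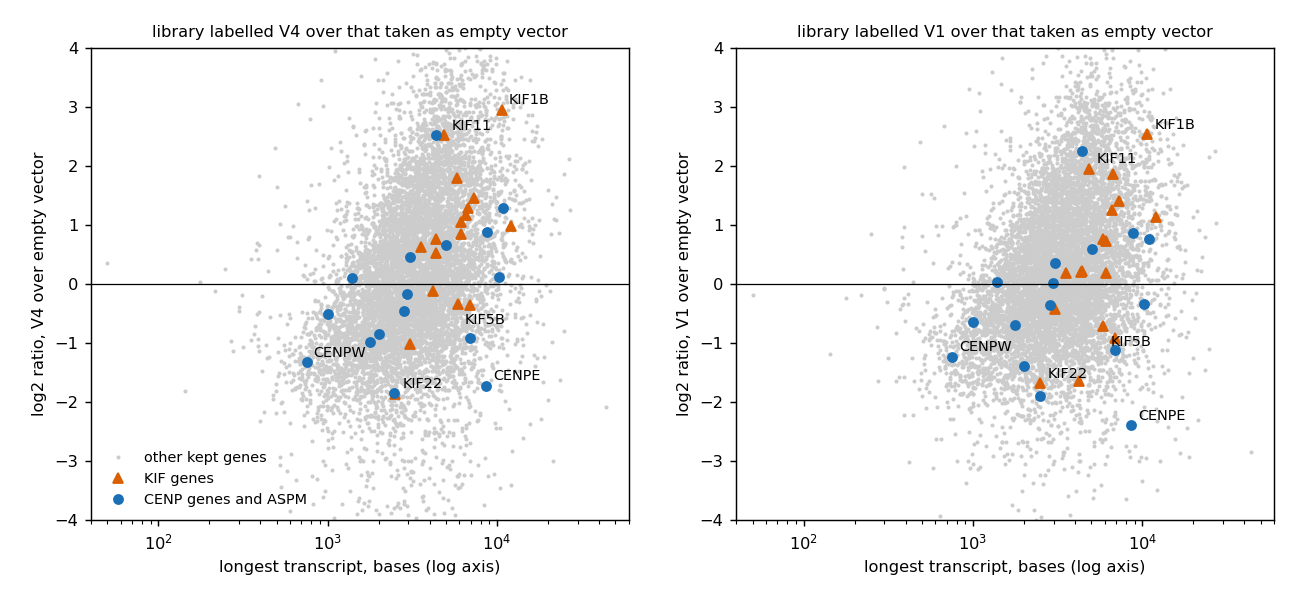
Log2 ratio over the library taken as empty vector against the length of the longest transcript (log axis), for the library labelled V4 (left) and that labelled V1 (right), with KIF genes as triangles, CENP genes and ASPM as circles and the other kept genes in grey. Short members such as CENPW lie below 0 and long ones such as KIF1B above, with CENPE as a long gene below 0, and 117 genes (left) and 50 genes (right) with a log2 ratio beyond 4 in either direction lie outside the axes.

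The 17 genes under the filter had at most 14 counts in any library. They included motors and centromere proteins that dividing cells are known to need. CENPA, the histone that defines the centromere, had 5 counts in the library labelled V4, 3 in that labelled V1 and 6 in that taken as empty vector. KIF23, a motor of the central spindle, had 0 counts with V4, 2 with V1 and 0 with empty vector, and KIF2C, which takes microtubules apart at kinetochores, had 0 with V4, 0 with V1 and 4 with empty vector. KIFC1, a minus-end motor of the spindle, had 14 counts with V4, 7 with V1 and 0 with empty vector, and KIF3C, a partner subunit of kinesin-2, had 10 with V4, 10 with V1 and 0 with empty vector. KIF3A, the usual partner of KIF3B in kinesin-2, had 2 counts with V4, 1 with V1 and 1 with empty vector, far fewer than KIF3B. CENPK, CENPL, KIF12, KIF13A, KIF15, KIF17, KIF20B, KIF27, KIF2A, KIF6 and KIF7 make up the rest. No ratio is given for these 17 genes.

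The number of transcripts that RefSeq lists for a gene moved with these low counts. Of 19 genes of the set with 1 curated RefSeq transcript 15 were kept (78.9%), with a median over the genes of 17.5 CPM. Of 30 with more than 1, 17 were kept (56.7%), with a median of 1.47 CPM. Among all symbols of the table that RefSeq lists, 62.5% were kept at 1 transcript and 59.2% at more, with medians of 3.53 and 2.1 CPM. KIF3B has 1 transcript in RefSeq and KIF3A has 3. Whether the counting left out reads shared by several transcripts was not tested, so a low count for a gene with several transcripts is not read as a low level of its RNA. Restricted to genes with 1 RefSeq transcript, a restriction chosen after the data were seen, 6 of 15 kept genes of the set were higher with V4 than with V1, and 12.1% of all such genes.

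**Figure D5:**
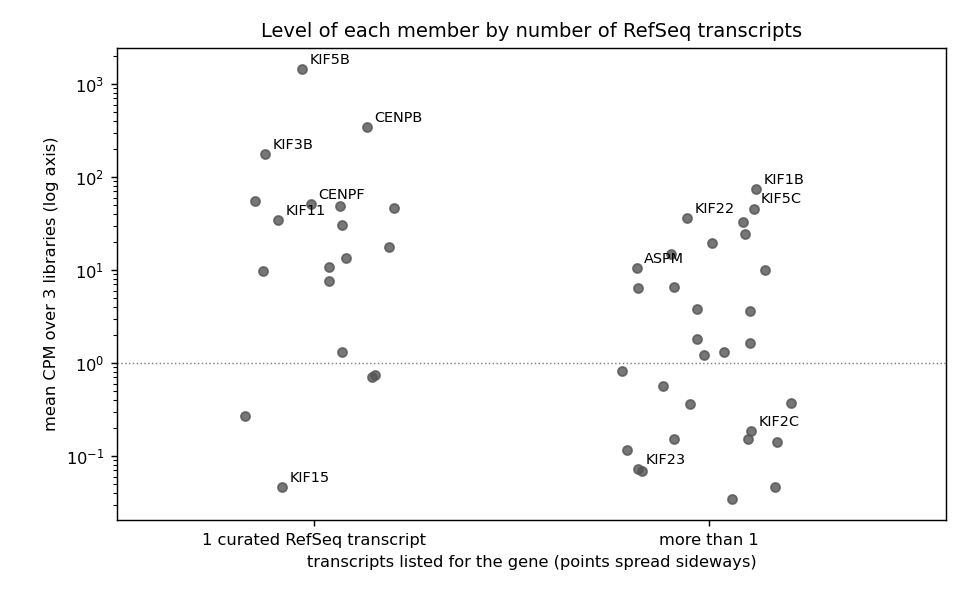
Mean CPM over the 3 libraries (log axis) of the 49 genes of the set that have curated RefSeq transcripts, split by whether RefSeq lists 1 transcript (left) or more (right), with the filter of 1 CPM as a dotted line. Most points on the left lie above 10 CPM, and many on the right lie below the filter.

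Other genes of the kinetochore and spindle, from lists of genes outside the set, were counted in the same way. Of 13 kept genes of the kinetochore and the spindle checkpoint 4 were higher with V4 than with V1 and none was lower, where 11.3% of all kept genes were higher and 12.3% lower. With the length trend removed 5 were higher, and with the GC trend removed 2, ZWILCH and ZW10. The 4 were ZWILCH (448 counts with V4 and 237 with V1, ratio 1.87, 1.59 to 2.20) and ZW10 (123 with V4 and 70 with V1, ratio 1.74, 1.28 to 2.36), both subunits of the complex that brings dynein to kinetochores, ZWINT, which helps to hold that complex (ratio 1.39, 1.01 to 1.92), and NSL1 of the MIS12 complex (interval 1.09 to 1.45). Of 6 kept genes listed under spindle assembly 2 were higher with V4 and none was lower, with either trend removed as well. These were RACGAP1 (1.98, 1.27 to 3.12), which works in the central spindle, and KIAA0101 (1.37, 1.20 to 1.57), which encodes a PCNA-associated factor of DNA replication and repair and not a spindle protein. Of 5 kept centromere genes under other symbols APITD1, which encodes CENPS, was higher with V4 (1.63, 1.20 to 2.23). Of 2 kept chromosomal passenger genes BIRC5 was lower, at 201 counts with V4 and 253 with V1. BIRC5 was not called with either trend removed, and APITD1 had no length or GC value and was not corrected. None of 7 kept genes of mitotic entry and exit was called in either direction between V4 and V1, and with the length trend removed CCNA2 and CCNB2 were higher. CCNB2, a mitotic cyclin, had 688 counts with V4 and 552 with V1, at a ratio of 1.23 (1.10 to 1.38).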

How the data were processed

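The authors deposited a table of whole-number read counts per gene symbol, with 1 column per library. Build hg19 is given per the submitters' processing notes. Not given in the sources used here are the aligner, the counter, its annotation, its strand setting and how shared reads were treated. The design text speaks of a technical replicate, without saying whether runs were summed. The columns naming V1 and V4 were tied to samples by name, and the remaining column to the empty vector by elimination.

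Of 15512 rows, 22 carried a calendar date and no symbol and were left unnamed, and the rows of 21 repeated symbols were added up. Genes were kept at a mean of at least 1 CPM over the 3 libraries. TMM factors from edgeR 4.0.16 (R 4.3.3) scaled the libraries (they were 1.05 for V4, 1.08 for V1 and 0.882 for empty vector). Log2 ratios used a prior of 2 counts, and printed ratios are of scaled counts without the prior. Ratios have 95% conditional binomial intervals (exact, Clopper-Pearson, scipy 1.17.1). Intervals and floors (3 counts) cover counting error only: without molecular identifiers, reads are not independent molecules. There was no test across samples. The calculation was tested on simulated counts.

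Values are given for genes of the set called in at least 1 comparison, for ASPM and for the most abundant of each role, and other members are given more briefly. The members, role lists, pathway lists and markers were chosen with earlier results of these data known. Length and GC content are those of each gene's longest GENCODE release 29 transcript, trends are lowess fits (statsmodels 0.14.6, fraction 0.3), and promoters and transcript numbers come from RefSeq. Neither reference is on the build of the counts, so coordinates belong to the sequences alone. DESeq2 1.42.0 gave median-of-ratios factors as an alternative. Figures were drawn with matplotlib 3.10.9.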

Additional observations from a re-analysis of the deposited data

How the results depend on the processing

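Leaving out a library was not possible with 1 per group. No paired analysis was possible because each group has 1 library. For V4 over V1, 12 genes of the set were higher and 1 lower. At 1.5-fold these were 2 and 0, with the length trend removed 6 and 2, and with the GC trend removed 7 higher. With no condition on the interval 2 were lower. The V1 and V4 libraries alone gave 11 higher, all 11 among the 12. For V4 over empty vector (15 higher, 11 lower), a minimum of 10 CPM gave 9 and 7, and the length trend removed gave 8 higher and a median log2 ratio of -0.02 in place of 0.46. Total counts gave 17 higher and 7 lower, and 1.5-fold gave 13 and 7. For V1 over empty vector (11 higher, 13 lower), a minimum of 10 CPM gave 6 and 8, and the length trend removed gave 7 higher. Its median log2 ratio of 0.18 became -0.23 with the length trend removed and -0.06 with the GC trend removed. Genes with 1 RefSeq transcript, an alternative chosen after seeing the data, gave 6 higher for V4 over V1, 8 higher and 3 lower for V4 over empty vector, and 4 higher and 4 lower for V1 over empty vector, out of 15. Fewer genes enter at 10 CPM (20 of the set) and at 1 transcript. For the other changes the cause was not tested. For the comparisons over empty vector the shares of all kept genes under these alternatives are not given, so the counts describe the set alone.

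Among called values, the log2 ratio changed sign with the length trend removed for CENPM (0.51 with V4 and 0.18 with V1 over empty vector), CENPP (-0.07), KIF26B (-0.04) and KIF4A (-0.02), all with V4 over empty vector, and for ASPM with V1 (-0.07). With the GC trend removed called values changed sign with V4 over empty vector for CENPB (0.11) and KIF18A (-0.14). Of 1041 values of 28 named genes under the alternatives, 26 changed sign, 8 of them called beforehand and 18 not. The uncalled ones included, with the length trend removed, CENPF with V4 over empty vector (-0.89 in place of 0.12) and, with V1 over empty vector, KIF4A (-0.33 in place of 0.20), KIF4B (-0.32 in place of 0.22) and KIF18A (-0.20 in place of 0.19). With the GC trend removed they included CENPF with V4 (-0.41) and KIF18A with V1 (-0.42) over empty vector. Apart from the 8, 940 of the values stayed inside the counting interval of the value reported and 93 left it. The 940 include values under another threshold, without the interval condition or with 1 RefSeq transcript, settings that leave a ratio as it was. They are therefore no measure of stability. With the length trend removed 37 values left the interval, 6 called values changed sign and 41 stayed. With the GC trend removed these were 27, 2 and 55. Scaling by total counts raised the median log2 ratio of all kept genes to 0.32 with V4 and 0.40 with V1 over empty vector. Counts under about 20 leave ratios loosely bounded, as for KIF18B, CENPO and CENPE. Removing the trends for the gene lists outside the set, and the luminal sum without CDH1, were also chosen after seeing the data.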

Other observations

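The partners of kinesins outside the set gave the following values. Cytoplasmic dynein carries cargo toward the minus ends of microtubules, opposite to most kinesins, and 4 of 14 kept genes of dynein and dynactin were higher with V4 than with V1 and none was lower by the 25% rule, where 11.3% of all kept genes were higher and 12.3% lower. With the length trend removed 4 were higher and 1 was lower, without DYNC1H1 among them, and with the GC trend removed 5 were higher. The dynein heavy chain DYNC1H1 had 33477 counts in the library labelled V4, 24145 in that labelled V1 and 6934 in that taken as empty vector, and its V4 over V1 ratio was 1.37 (1.35 to 1.39). The light intermediate chain DYNC1LI2 had 589 counts with V4, 378 with V1 and 73 with empty vector and a V4 over V1 ratio of 1.54 (1.35 to 1.76), and DCTN3 and NDEL1 were the others called. Among 7 kept kinesin light chains and adaptors TRAK2, which couples kinesin-1 to mitochondria, was called between V4 and V1, with 364 counts with V4, 216 with V1 and 13 with empty vector and a ratio of 1.67 (1.40 to 1.98). KLC1, the main light chain of kinesin-1, had 333 counts with V4, 343 with V1 and 371 with empty vector, and its ratio of 0.959 (0.823 to 1.12) was not called.

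Tubulins form the track of all these motors. Of 10 kept tubulin genes TUBB6 was lower with V4 than with V1, at 462 counts with V4 and 709 with V1, and the others were not called in that comparison. The most abundant, TUBA1B, had 28184 counts in the library labelled V4, 27438 in that labelled V1 and 24118 in that taken as empty vector, with a V4 over V1 ratio of 1.01 (0.998 to 1.03). Of 14 kept genes of S phase 3 were higher with V4 than with V1 and none was lower: GINS2 (1.48, 1.22 to 1.80), GINS1 (1.34, 1.07 to 1.68) and the cyclin CCNE2 (1.31, 1.14 to 1.52). Over all kept genes 11.3% were higher and 12.3% lower, and with the GC trend removed 2 of the 14 were higher, GINS2 and MCM7.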
